A study of Rattus norvegicus with 36 samples.

Results

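The proline- and acidic-rich basic leucine zipper (PAR bZIP) genes *Dbp* and *Tef* and their antagonist *Nfil3* were followed through the rat thyroid 24 h after injection of 131I. All non-control probes whose accession belongs to 1 of the 3 genes were taken, which gave 3 of 15154 genes and 5 of the 30367 probes on the array: 3 of *Dbp*, 1 of *Tef* and 1 of *Nfil3*. All 5 were well above background on all 36 arrays. *Hlf*, the remaining PAR bZIP gene, had no probe among the 17998 that were matched to a gene. The 36 animals were adult male Sprague Dawley rats without any genetic change, 4 in each of 9 groups. Each rat had 1 single-colour Agilent array, of RNA from its thyroid tissue sample. The 8 irradiated groups received 131I in saline through a tail vein, at 9, 88, 170 and 260 kBq or at 340, 760, 1300 and 4700 kBq, and the 4 controls (0 kBq) received saline alone. The groups were injected in order of rising activity and the controls came last, so among the irradiated groups the position in that order and the absorbed dose have the same ranks and cannot be told apart. Only the place of the controls separates them. Rats were killed 24 h after injection, in day-time, so the time of killing would follow the same order. The paper gives no clock times, and the part of that time was not tested. Rats were kept 4 to a cage, and how groups were placed in cages is not stated.

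DBP, TEF and HLF are transcriptional activators that bind the same DNA element, the D-box, and NFIL3 (also called E4BP4) is a repressor that binds that element too. They form an output arm of the circadian clock: BMAL1 and CLOCK drive *Dbp* through E-boxes, the PER and CRY proteins oppose that drive, and *Nfil3* is repressed by the REV-ERB receptors. In peripheral organs of rodents the *Dbp* and *Tef* transcripts therefore cycle over the day, and *Nfil3* cycles in roughly the opposite phase.

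The sequences before the 3 genes are shown because the E-box and D-box carry the regulation just described. Each is the 250 bases upstream of the start in the RefSeq table of build GRCr8, plus strand, 5′ to 3′, with any searched motif in capitals. The windows lie at chr1:105312006-105312255 for *Dbp* (gene at chr1:105312256-105317205), chr7:115206577-115206826 for *Tef* (gene at chr7:115197180-115221930, so this start lies inside the gene's full extent) and chr17:12432126-12432375 for *Nfil3* (gene at chr17:12432376-12447605).
Dbp: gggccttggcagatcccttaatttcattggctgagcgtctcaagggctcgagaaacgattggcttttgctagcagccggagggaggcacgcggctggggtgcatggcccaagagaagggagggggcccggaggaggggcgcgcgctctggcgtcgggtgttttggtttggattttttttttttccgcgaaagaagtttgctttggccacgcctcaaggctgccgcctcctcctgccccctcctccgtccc
Tef: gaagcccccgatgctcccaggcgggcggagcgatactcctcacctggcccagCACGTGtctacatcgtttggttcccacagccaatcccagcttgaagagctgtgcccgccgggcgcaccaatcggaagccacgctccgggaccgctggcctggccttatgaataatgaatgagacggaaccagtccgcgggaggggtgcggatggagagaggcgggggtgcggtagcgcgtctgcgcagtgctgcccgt
Nfil3: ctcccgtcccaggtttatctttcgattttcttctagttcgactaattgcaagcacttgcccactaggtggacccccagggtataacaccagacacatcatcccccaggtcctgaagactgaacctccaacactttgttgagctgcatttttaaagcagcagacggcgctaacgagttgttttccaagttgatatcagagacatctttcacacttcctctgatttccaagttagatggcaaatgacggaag
The motifs searched on both strands, including the 50 bases after the start, were the E-box CACGTG, the E′-box CACGTT, the D-boxes TTATGTAA and TTACGTAA, and the nuclear receptor elements TAGGTCA and TGGGTCA. The *Tef* window held 1 E-box, whose first base lies at -198 from the start, and 6.42% of all 33469 promoters in the table held that motif. No searched motif occurred in the *Dbp* or *Nfil3* window, which says only that these letters are absent there.

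Levels are given as log2 processed signal minus the array's 75th percentile, so that 0 is the signal below which 75% of an array's spots lie, and levels of different probes are not compared with each other. The 75th percentile was 1564 to 4288 in intensity (median 2781) and 62.6 to 91.0% of probes were well above background. The labelled tissue did not show evenly on the arrays. The mean over 13 thyroid follicular genes was above 0 on 18 arrays, where it was at least 0.93, and below 0 on the other 18, where it reached from -5.25 to -1.06. Of those 13 genes, 7 were not well above background on at least 1 of the latter arrays. The symporter *Slc5a5* was well above background on 11 of these 18 arrays, whereas *Tg*, which encodes thyroglobulin, was on all 18. Both sets of arrays held rats of every group, with 3 of the 4 controls, 3 of the 4 rats at 4700 kBq and 1 of the 4 rats at 9 kBq in the set with the higher follicular level. Fast muscle genes, 7 of 7 of them well above background on all arrays, had a list mean above 0 on 35 arrays. In such tissue, fewer cells of a type and less RNA per cell cannot be told apart. The slopes, the relations and some of the ratios below are also given within the 2 sets of arrays. Where the groups' median probe lay off the controls by more than 0.1 on the log2 scale (0.12 at 170 kBq, 0.31 at 340 kBq and 0.22 at 1300 kBq), ratios relative to that shift are added.

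*Dbp* was lowest in the groups injected first and highest in those handled last. Its brightest probe, A_64_P017188, had log2 levels of 1.55, 1.85, 2.10 and 2.84 in the 4 rats at 9 kBq, and of 1.60, 1.85, 2.11 and 2.63 at 88 kBq. The levels were 1.21, 2.19, 2.43 and 2.74 at 170 kBq, and 1.81, 2.06, 2.68 and 3.12 at 260 kBq. These 4 groups overlapped throughout. At 340 kBq the rats had 2.15, 2.80, 3.40 and 3.68, and at 760 kBq 3.26, 3.65, 3.89 and 4.40. The 1300 kBq group spread most, with 3.14, 3.68, 4.86 and 5.46, and the 4700 kBq group reached 4.43, 4.89, 4.90 and 6.18. The controls, mock-treated last, had 3.71, 4.56, 5.06 and 5.76 and overlapped with the 760, 1300 and 4700 kBq groups. Every rat of the groups from 9 to 340 kBq lay below every control.

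**Figure D1:**
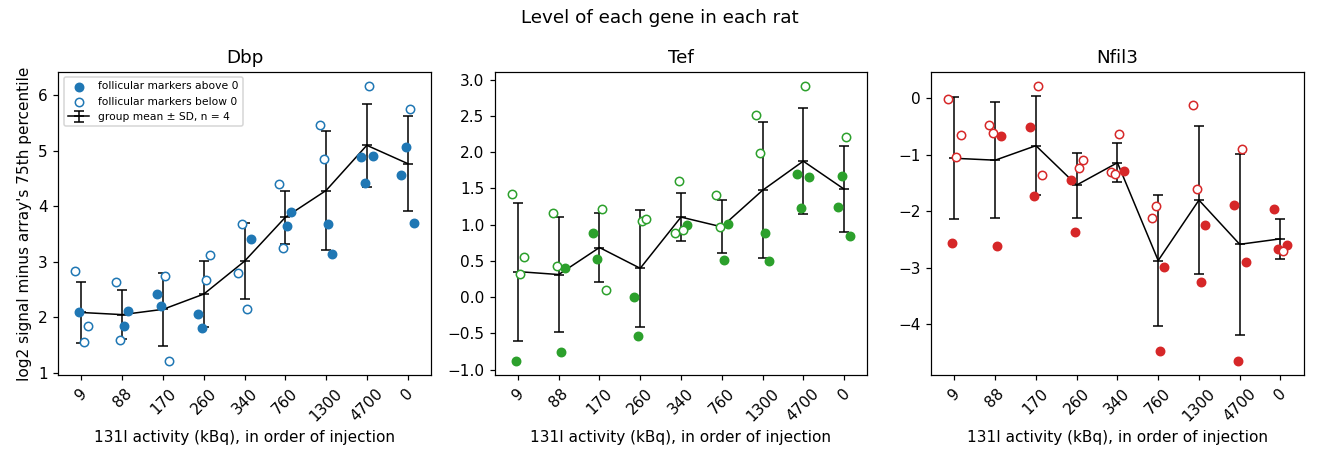
Log2 level (signal minus the array's 75th percentile, y axis) of Dbp, Tef and Nfil3 in each of the 36 rats, by group in the order of injection (x axis, kBq). Filled points are arrays with a mean follicular marker level above 0 and open points those below 0, and black lines join the group means ± SD (n = 4); Dbp lies between 1.21 and 6.18 and climbs from left to right, Tef climbs less, and Nfil3 lies lower on the right.

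Against the controls, the *Dbp* log2 ratio was -2.69 ± 0.49 (SE) at 9 kBq, -2.72 at 88 kBq and -2.63 at 170 kBq (-2.75 relative to the median probe), which are 6.43, 6.61 and 6.19-fold lower levels. It was -2.35 at 260 kBq, -1.76 at 340 kBq (-2.07 relative to the median probe) and -0.97 at 760 kBq, and the last groups had -0.49 (1300 kBq; -0.70 relative to the median probe) and 0.33 (4700 kBq). In limma's fit of these levels no probe on the array passed the study's limits, an adjusted p under 0.01 with a 1.5-fold change. This held in each of these 8 comparisons (0% called in each), so the 40 tests of the 5 probes gave 0 calls. At those limits the paper, which used other software, reports regulated transcripts in every irradiated group, with *Dbp* among them at lower doses. At an adjusted p under 0.05 from limma, all 3 *Dbp* probes passed at 9 and 88 kBq (0.0165% and 0.0132% of all probes called, 0.00988% in each as lower), and 2 of them at 170 kBq (0.00988% called, 0.00659% as lower). The adjusted p of A_64_P017188 was 0.0357, 0.0358 and 0.0618 in those groups. With a slide block it was 0.118, 0.951 and 0.202, and no probe on the array passed 0.05 in them. The lack of overlap with the controls from 9 to 340 kBq, seen with all 3 probes, occurred in 0.247%, 0.194%, 0.244%, 0.244% and 0.304% of all probes in that direction. The two-sided exact permutation p was 0.0286 in each of these 5 groups, the smallest that 4 against 4 rats can give. Quantile normalization, under which 12 of the 40 tests passed the study's limits among 15 calls over all probes and groups (0.00617% of 242936 tests), gave adjusted p-values of 0.000856 at 9 kBq and 0.00636 at 260 kBq for this probe.

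The 3 *Dbp* probes gave the same picture, since their levels correlated across the 36 arrays with r between 0.994 and 0.999. Their log2 ratios at 9 kBq were -2.69, -2.69 and -2.72. Whether the probes share bases was not analysed here, so they are counted as 1 gene.

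*Tef* followed the same direction at a smaller size, and none of its ratios passed. The 4 rats had -0.88, 0.32, 0.55 and 1.43 at 9 kBq, and -0.75, 0.40, 0.44 and 1.17 at 88 kBq. They had 0.10, 0.53, 0.89 and 1.22 at 170 kBq, and -0.54, -0.00036, 1.06 and 1.08 at 260 kBq. Each of these groups overlapped with the controls, whose rats had 0.84, 1.24, 1.68 and 2.21. The 340 kBq group was narrow, at 0.89, 0.93, 0.998 and 1.60, and the 760 kBq group had 0.51, 0.96, 1.01 and 1.40. At 1300 kBq the levels were 0.50, 0.89, 1.99 and 2.51, and at 4700 kBq 1.23, 1.66, 1.70 and 2.92. The latter held the highest *Tef* level of the series.

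The *Tef* log2 ratios to the controls were -1.14 ± 0.49 (SE), -1.18, -0.81 and -1.09 in the groups from 9 to 260 kBq, and at 170 kBq -0.93 relative to the median probe. They were -0.39 at 340 kBq (-0.69 relative to the median probe), -0.52 at 760 kBq, -0.02 at 1300 kBq (-0.23 relative to the median probe) and 0.39 at 4700 kBq. Adjusted p-values from limma were at least 0.677, and the smallest exact permutation p was 0.0571, at 88 kBq. All 8 groups overlapped with the controls.

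*Nfil3*, which encodes the D-box repressor, had mean levels above the controls from 9 to 340 kBq, and none of its ratios passed. Its 4 control rats lay close together, at -2.71, -2.68, -2.61 and -1.97. The rats had -2.56, -1.03, -0.65 and -0.01 at 9 kBq, and -2.63, -0.67, -0.62 and -0.47 at 88 kBq. At both activities 1 rat lay among the controls and the other 3 above them. The levels were -1.72, -1.35, -0.51 and 0.22 at 170 kBq and -1.34, -1.30, -1.29 and -0.63 at 340 kBq, where no rat overlapped with the controls, which was the case for 1% and 4.04% of all probes in that direction. At 260 kBq they were -2.37, -1.45, -1.23 and -1.10. At 760 kBq the rats had -4.48, -2.98, -2.12 and -1.91, at 1300 kBq -3.26, -2.24, -1.61 and -0.11, and at 4700 kBq -4.66, -2.91, -1.89 and -0.90. These last 3 groups spread to both sides of the controls.

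The log2 ratios of *Nfil3* to the controls were 1.43 ± 0.70 (SE), 1.39, 1.65, 0.95 and 1.35 from 9 to 340 kBq, and relative to the median probe 1.53 at 170 kBq and 1.04 at 340 kBq. They were -0.38, 0.69 (0.47 relative to the median probe) and -0.10 from 760 to 4700 kBq. The lowest limma adjusted p among them was 0.3997. The exact permutation p was 0.0286 at 170 and 340 kBq and 0.0571 at 9 and 260 kBq.

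**Figure D2:**
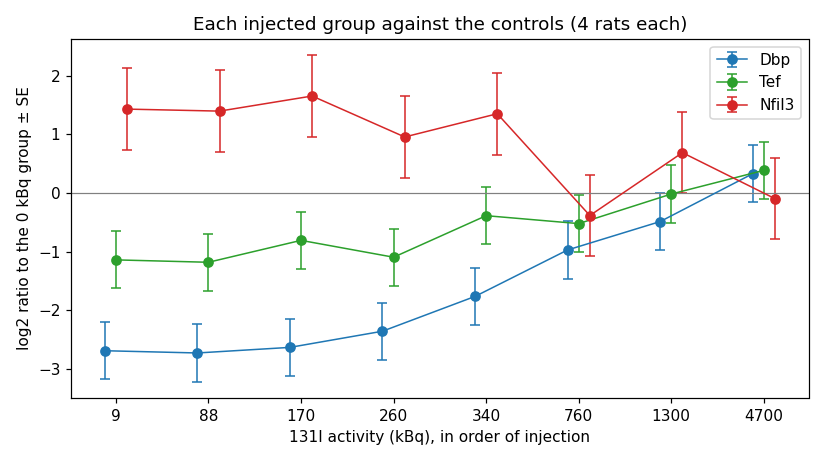
Log2 ratio of each injected group to the 4 controls (y axis, ± SE from limma) for Dbp, Tef and Nfil3, by activity in the order of injection (x axis). Dbp runs from -2.69 at 9 kBq to 0.33 at 4700 kBq, Tef from -1.14 to 0.39, and Nfil3 from 1.43 to -0.10; the 8 comparisons share the same controls.

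The 9 group means were then set against the position in the order of injection, from 1 for 9 kBq to 9 for the controls. The mean of *Dbp* was higher by 0.43 ± 0.045 (SE; 95% confidence interval 0.33 to 0.53) on the log2 scale with each position, 1.34-fold per position. In limma's fit over the group means the adjusted p was 0.0461 for each of the 3 *Dbp* probes, which together were 3 of the 4 probes called at 0.05 (0.0132% of all) while 0% were called at 0.01. Pearson's r was 0.958 (exact permutation p = 5.51e-05) and Spearman's rho 0.967 (exact permutation p = 0.000165). Without the first and last positions r was 0.977. The adjusted p was 0.064 after quantile normalization, and with 1 rat left out at a time it stayed under 0.05 in 15 of 36 fits. The median slope of all probes was -0.0023.

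*Tef* had 44.6% of the *Dbp* slope, 0.19 ± 0.032 (SE) per position, with r = 0.915 (exact permutation p = 0.00109) and rho = 0.933 (exact permutation p = 0.00075). *Nfil3* had a slope of the opposite sign, -0.22 ± 0.056 (SE), with r = -0.805 (exact permutation p = 0.0122) and rho = -0.817 (exact permutation p = 0.0108). Without the first and last positions r was 0.930 for *Tef* and -0.769 for *Nfil3*. Adjusted over all probes, limma's p was 0.340 for *Tef* and 0.421 for *Nfil3*, so neither slope passed.

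With the controls placed lowest, as the absorbed dose has them, the same means showed weaker relations. The *Dbp* slope was 0.20 ± 0.13 (SE; 95% confidence interval -0.089 to 0.50) per dose rank, with r = 0.460 (exact permutation p = 0.207) and rho = 0.517 (exact permutation p = 0.162). *Tef* had r = 0.533 (exact permutation p = 0.139) and *Nfil3* r = -0.387 (exact permutation p = 0.294). In limma's fit the adjusted p-values were 0.723, 0.697 and 0.746, and 0% of all probes were called at 0.05. The difference between the relations with order and with dose was not tested, and it rests on the place of the 4 controls. Within the 8 irradiated groups, where order and dose rank are alike, r was 0.952 for *Dbp*, 0.923 for *Tef* and -0.771 for *Nfil3*, with exact permutation p-values of 9.92e-05, 0.00144 and 0.0268.

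The 2 ends of the irradiated series gave the only call among the members. *Dbp* rose from 9 to 4700 kBq by 3.01 ± 0.49 (SE), 8.08-fold, with a limma adjusted p of 0.00551, and its other probes by 3.05 and 3.08 with 0.00156 and 0.0016. These 3 were among the 5 probes called (0.0165% of all probes), and the rats of the 2 groups did not overlap, which held for 1.41% of all probes in that direction. Leaving out 1 of 6 rats (rats 2, 3 and 4 at 9 kBq, rats 1, 3 and 4 at 4700 kBq) raised the adjusted p to between 0.0199 and 0.0575, and a block for the slide raised it to 0.020. *Tef* was 2.88-fold higher at 4700 than at 9 kBq (log2 ratio 1.52 ± 0.49 SE, adjusted p = 0.504) and *Nfil3* 2.88-fold lower (-1.52 ± 0.70 SE, adjusted p = 0.579), with overlapping rats in both. With array weights, which downweight variable arrays, these 2 genes passed as well (1.19 with adjusted p = 0.00552, and -1.97 with 0.00333), in a fit that called 3647 probes, 12% of all. With the follicular list mean as a covariate, *Tef* had 2.13 (limma adjusted p = 0.0103) and *Nfil3* -0.76 (0.539), in a fit that called 0.0231% of all probes. On the arrays with the higher follicular level *Tef* had 2.41 and *Nfil3* -0.59, and on the others 2.16 and -0.34. In each set 1 of the 2 groups held 1 rat.

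Neighbouring groups in the order did not differ beyond their spread by these limits: 0 of the 40 tests of member probes between successive groups passed (0% of all probes called in each step), and limma's adjusted p was at least 0.647. The *Dbp* step was -0.04 from 9 to 88 kBq, 0.10 to 170 kBq, 0.28 to 260 kBq, 0.59 to 340 kBq, 0.79 to 760 kBq, 0.48 to 1300 kBq and 0.82 to 4700 kBq, and -0.33 on to the controls, each with an SE of 0.49. The largest step of *Nfil3* was from 340 to 760 kBq, -1.73 ± 0.70 (SE; -1.55 relative to the median probe), where the rats of the 2 groups did not overlap (4.44% of all probes in that direction). In order of level the *Dbp* means ran 88, 9, 170, 260, 340, 760, 1300, 0 and 4700 kBq. Those of *Tef* ran 88, 9, 260, 170, 760, 340, 1300, 0 and 4700 kBq, and those of *Nfil3* ran 760, 4700, 0, 1300, 260, 340, 88, 9 and 170 kBq.

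The direction of the ratios and slopes was also read within subsets of the arrays. On the 18 arrays with the higher follicular level, which held 3 controls, the *Dbp* ratios to the controls from 9 to 340 kBq lay between -2.51 and -1.04, with limma adjusted p-values of at least 0.0761. On the other 18 arrays, with 1 control, they lay between -3.78 and -2.86, with at least 0.155. *Nfil3* at 9 kBq was at -0.14 in the first set, where that group had 1 rat, and at 2.15 in the second. *Tef* at 9 kBq was at -2.13 and -1.45 in these sets. With the follicular list mean as a covariate on all arrays, the 9 kBq ratios were 0.69 for *Nfil3* and -1.72 for *Tef*. On the 18 arrays with the higher follicular level the slopes per position were 0.36 for *Dbp*, 0.24 for *Tef* and -0.15 for *Nfil3*, with limma adjusted p-values of 0.951 for each. On the other 18 they were 0.57, 0.26 and -0.19, with adjusted p-values of 0.0514, 0.0514 and 0.191. With the follicular list mean as a covariate on all arrays the *Dbp* slope was 0.45, with an adjusted p of 0.0293. The *Dbp* slope was positive within each of the 5 slides, from 0.077 on slide 4, which held 6 arrays of 4 groups, to 0.49 on slide 1, and was 0.47 and 0.38 on the 2 scan days. *Tef* had -0.10 on slide 4 and 0.12 to 0.34 on the others, and *Nfil3* had -0.42 to -0.061 over the slides. Against the controls of the same slide, *Dbp* at 9 kBq was at -2.63, -3.51 and -2.71 on the 3 slides that held both groups, *Tef* at -2.41, -1.36 and -0.69, and *Nfil3* at 0.10, 1.64 and 1.32. Each of these slides held only 1 rat at 9 kBq, against 2, 1 and 1 controls. Within the 2 scan days the 9 kBq ratios were -3.01 and -2.22 for *Dbp*, -1.86 and -0.25 for *Tef*, and 0.87 and 1.64 for *Nfil3*. They set 2 rats against 3 controls on the first day and 2 rats against 1 control on the second.

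**Figure D3:**
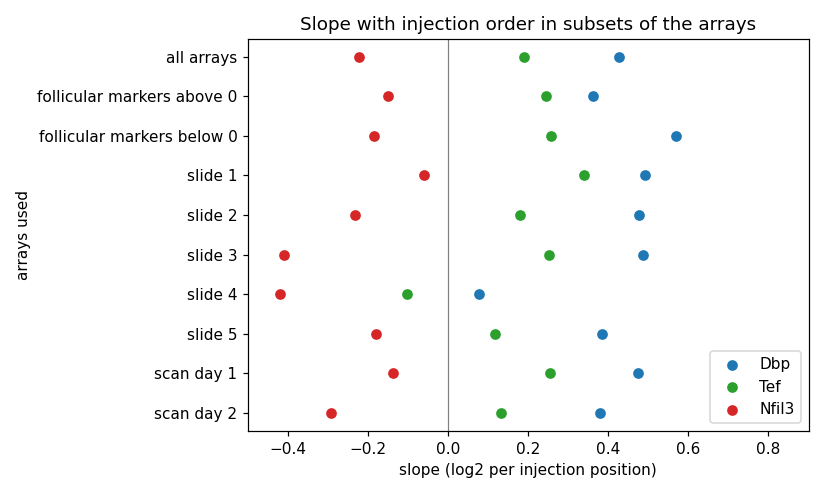
Slope of the log2 level per position in the order of injection (x axis) for Dbp, Tef and Nfil3, on all arrays, in the 2 sets of arrays by follicular level (slopes over group means), and on each slide and scan day (slopes over arrays). Each point is 1 slope; Dbp lies at or above 0.077 in every subset and Nfil3 below 0 in every subset, while Tef is at -0.10 on slide 4.

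Tissue lists and array quality were set against the same order, and their part in the results was not tested. The follicular list mean ran from -3.10 at 9 kBq to 0.43 in the controls, with a slope of 0.29 per position (rho = 0.65, exact permutation p = 0.0666, 0.366 adjusted over 11 tissue lists). The adipose list had a slope of 0.11 (rho = 0.683, exact permutation p = 0.0503, 0.366 adjusted), the C cell list 0.42 (rho = 0.583, exact permutation p = 0.108) and the squamous epithelium list -0.39 (rho = -0.533, exact permutation p = 0.147), while the fast muscle list had 0.04 (rho = 0.183, exact permutation p = 0.644). None of the 11 lists had an adjusted p under 0.366. The share of probes well above background was lower later in the order, from 69.7 to 75.4% over the group means, with rho = -0.717 (exact permutation p = 0.0369).

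Within groups the pattern between the genes was another one. The deviations of the 36 rats from their group means correlated with r = 0.804 (rho = 0.804) between *Dbp* and *Tef*, r = 0.758 (rho = 0.694) between *Tef* and *Nfil3*, and r = 0.473 (rho = 0.412) between *Dbp* and *Nfil3*. Permutation p-values within groups, adjusted over the 3 pairs, were 1.5e-05, 1.5e-05 and 0.0119 for r (0.00001 unadjusted, the smallest that 100000 permutations give, for the first 2 pairs) and 3e-05, 4.5e-05 and 0.0282 for rho. Without the 2 rats farthest from the median of the first gene, r was 0.760, 0.719 and 0.333 (permutation p = 0.0523 for the last). Thus *Nfil3*, whose group means ran against those of *Dbp* (r = -0.846, exact permutation p = 0.00766 over 9 means) and *Tef* (r = -0.670, exact permutation p = 0.055), was higher in the same rats of a group in which *Tef* was higher. Between *Dbp* and *Nfil3* r within groups was 0.259 after quantile normalization (permutation p = 0.136), and the deviations of the array's 75th percentile had r = -0.518 with *Dbp*, -0.654 with *Tef* and -0.450 with *Nfil3* (permutation p = 0.00814, 0.00032 and 0.02), whose part in the relations was not tested. The group means of *Dbp* and *Tef* had r = 0.950 (exact permutation p = 0.000251).

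These relations were taken again inside the 2 sets of arrays, since levels differed between them. Averaged over the 9 groups, the arrays low in follicular markers were higher by 0.93 ± 0.62 (SD over groups) for *Tef*, in 8 of 9 groups, by 1.13 ± 0.89 for *Nfil3*, in 8 of 9 groups, and by 0.53 ± 0.84 for *Dbp*, in 6 of 9. *Dbp* and *Tef* correlated in both sets, with r = 0.780 (permutation p = 0.00184, rho = 0.847) over 16 arrays with the higher follicular level and r = 0.938 (permutation p = 0.00252, rho = 0.871) over 16 with the lower, groups with a single such array being left out. *Tef* and *Nfil3* had r = 0.652 in each, with permutation p-values of 0.0489 and 0.104 (0.0733 and 0.156 adjusted over the 3 pairs). *Dbp* and *Nfil3* had r = 0.333 and 0.460 (permutation p = 0.168 and 0.239). In both sets the groups at 88, 170, 260, 760 and 1300 kBq held 2 arrays each. Deviations of such a pair from its mean mirror each other, so the 16 values of a set are not all separate. Over all rats, the deviations of the follicular list had r = -0.719 with *Tef*, -0.637 with *Nfil3* and -0.399 with *Dbp*. Those of the fast muscle list had 0.605, 0.757 and 0.316. Permutation p-values adjusted over 33 relations were 0.00055, 0.00191 and 0.122 for the former, and 0.000165, 0.000165 and 0.0756 for the latter. The C cell list had r = -0.673 with *Tef* and -0.598 with *Nfil3* (adjusted permutation p = 0.00191 and 0.0039). For the parathyroid list r was -0.616 and -0.578 (0.00466 and 0.0041), and the cartilage list had 0.507 with *Tef* (0.0195). None of the remaining relations had an adjusted p under 0.155.

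**Figure D4:**
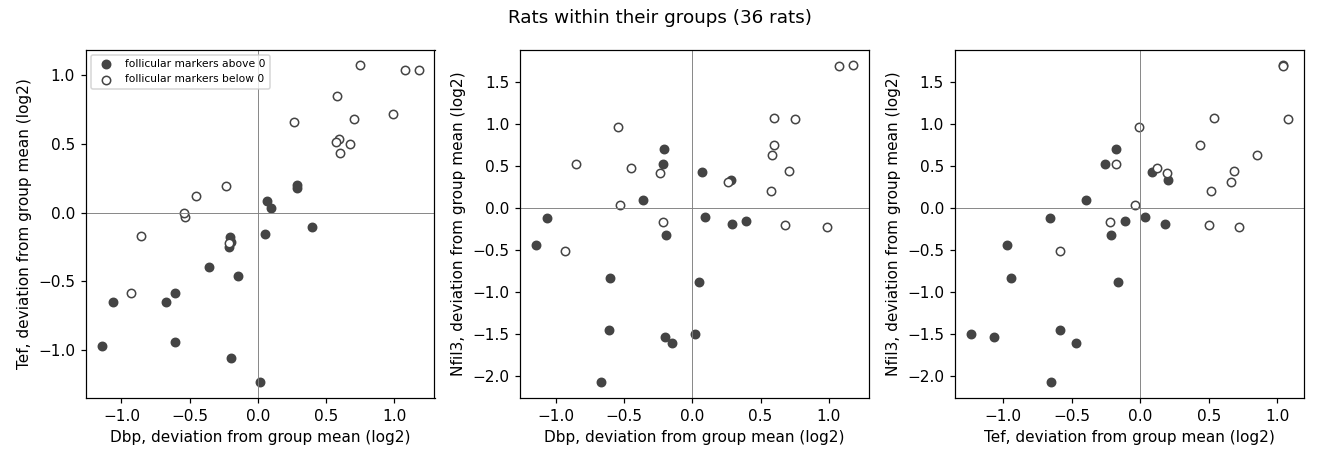
Deviation of each rat from its group mean (log2) for the 3 pairs of genes, 36 points a panel, filled for arrays with a follicular marker level above 0 and open for those below. Dbp against Tef and Tef against Nfil3 run along a rising line (r = 0.804 and 0.758), Dbp against Nfil3 less so (r = 0.473), and open points lie mostly higher than filled ones on the y axis of each panel.

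The other genes of the clock were read against the same order, from lists of 23 genes with a matched probe, of which 0 had a slope that passed at an adjusted p of 0.05. Between the ends of the irradiated series, however, *Bmal1* passed the study's limits. Its log2 ratio of 4700 to 9 kBq was -2.28 ± 0.31 (SE, limma adjusted p = 0.00153), so it was among the 5 probes called there. The core activators had slopes below 0 in 3 of 3 genes, with a median of -0.13 per position against -0.0023 for all probes: *Bmal1*, the partner of CLOCK, had -0.29 ± 0.045 (SE, limma adjusted p = 0.297), *Clock* -0.13 and *Npas2*, its paralog, -0.13. A dimmer probe of *Npas2* had -0.0016. Among the cryptochromes, which encode repressors of that pair, *Cry1* had -0.23 ± 0.033 (adjusted p = 0.231) and *Cry2* -0.02. The Period genes had positive slopes in 3 of 3, 0.18 for *Per2*, 0.15 for *Per3* and 0.02 for *Per1*. *Nr1d1* and *Nr1d2*, which encode the REV-ERB receptors, *Ciart* and *Bhlhe40* were positive in 4 of 4 (median 0.28), with 0.35, 0.20, 0.45 and 0.13. *Ciart* was well above background on only 12 arrays. At an unadjusted p under 0.05, 7 of the 23 genes had slopes above 0 and 4 below 0, where 3.87% and 6.16% of all probes did.

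Genes with D-boxes or dependent on PAR bZIP factors in other organs, which include the Period and REV-ERB genes already named, had a median slope of 0.074, with 9 of 11 above 0. Of the 9 that were well above background on at least 18 arrays, 7 had slopes above 0, with the same median. The metabolic targets were nearer to the median probe: *Por*, the electron donor of cytochrome P450 enzymes, had 0.07, *Pdxk*, the vitamin B6 kinase, 0.02, *Alas1*, the first enzyme of haem synthesis, -0.02, and *Nr1i3*, a xenobiotic receptor, -0.03. *Cyp7a1*, of bile acid synthesis, was well above background on 0 arrays and *Tshb*, the pituitary hormone subunit, on 3. Of 5 further clock outputs, *Usp2* had 0.10, *Nampt* 0.06, *Wee1* 0.03, *Tsc22d3* 0.0031 and *Tspo* -0.07 (median 0.029).

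**Figure D5:**
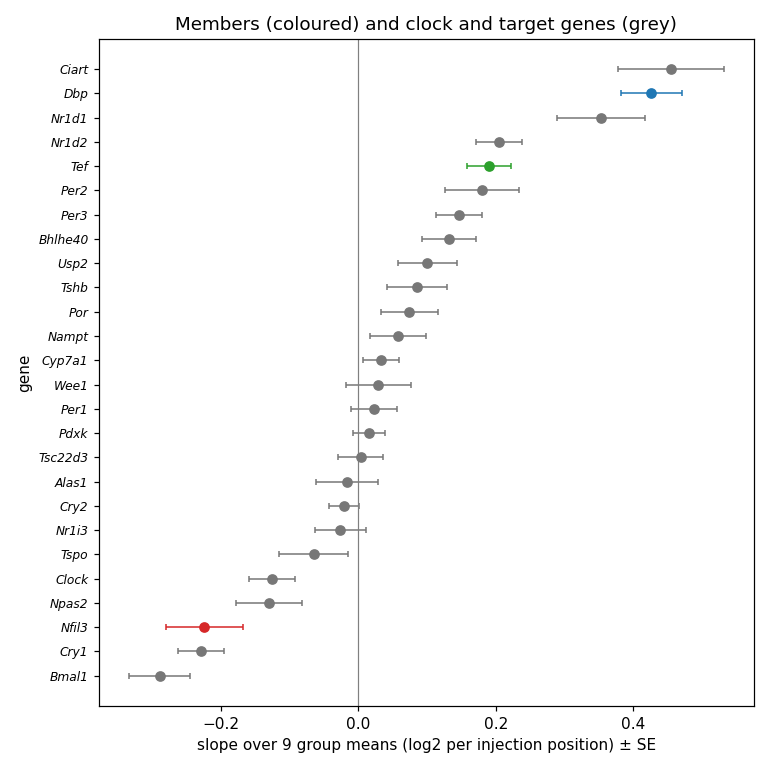
Slope over the 9 group means (x axis, log2 per position in the order of injection, ± SE) of Dbp, Tef and Nfil3 (coloured) and of 23 clock and target genes (grey), sorted. Ciart (0.45) and Dbp (0.43) lie at the upper end, and Bmal1 (-0.29), Cry1 (-0.23) and Nfil3 (-0.22) at the lower end.

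Among 11772 genes well above background on at least 18 arrays, those closest to each member across the 36 arrays were named by Pearson's r, as a description, since the arrays share tissue makeup, group and scaling. For *Dbp* they were *Klf9* (r = 0.843, rho = 0.826), *Nr1d2* (0.820, 0.847), *Gpr146* (0.783, 0.759), *Per3* (0.754, 0.732) and *Nr1d1* (0.731, 0.760), and at the other end *Bmal1* (-0.777, -0.750), *Clock* (-0.725, -0.674), *Pus10*, *Wsb1* and *H2ac21*. For *Tef* they were *Per3* (0.920, 0.857), *Nr1d2* (0.918, 0.922), *Nr1d1* (0.907, 0.867), *Klf15* (0.904, 0.842) and *Neurl2*, and at the other end *Gopc* (-0.845, -0.808), *Npas2* (-0.842, -0.829), *Vhl*, *Otud5* and *Srsf10*. *Per3*, *Nr1d1* and *Nr1d2*, genes of the clock's negative limb, were on both lists. For *Nfil3* they were *Maf* (0.802, 0.805), *Fgf2* (0.792, 0.764), *Cdc34*, *Grip2* and *Cry1* (0.784, 0.799), and at the other end *Ifi30* (-0.784, -0.808), *Synj2*, *Arb2a*, *Aida* and *Sulf2*. *Bmal1* had r = 0.664 with *Nfil3* and -0.462 with *Tef*.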

How the data were processed

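Total RNA of 36 rat thyroids, 1 per animal, was hybridized by the authors to 1-colour Agilent arrays, read with Feature Extraction 10.7.3.1, and the deposited intensity values (processed signal, background-subtracted, not normalized between arrays) were used; the authors' deposited matrix, quantile normalized linear intensity made with Partek per the labels, served as an alternative. Control and outlier spots were left out, log2 intensity minus each array's 75th percentile was taken, and repeated spots were averaged per probe, which left 30367 probes without a filter; 99 lacked a value on some array and were fitted on the rest. The members' genes come from RefSeq accessions (GRCr8).

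limma 3.58.1 (R 4.3.3) was fitted with 1 mean per group on all arrays, and with a linear term on the 9 group means for order and dose rank, with Benjamini-Hochberg adjustment over all probes. Limits were an adjusted p under 0.01 with at least 1.5-fold (slopes: 0.01 alone), with 0.05 given beside. Exact permutations and 100000 within-group permutations (numpy 2.4.6, scipy 1.17.1, pandas 2.3.3, Python 3.11.15) were two-sided; matplotlib 3.10.9 drew the figures. For a gene with several probes the one with the highest mean was used. The genes named are the members, the listed clock, target and tissue genes, and the 5 most and 5 least correlated genes per member. The fits were tested on simulated data. The members, lists and tests were chosen with earlier results of these data known. The number of arrays limits the precision. The 75th percentile as a scale assumes that the bright end of the signals is alike between arrays. The alternatives were other scalings, background correction on median spot signals with an offset of 50, and a filter on dim probes. Further ones were blocks for slide, scan day and rat number, array weights, covariates and fits of only the 2 groups compared. Other probes and leaving out each rat were also used. The 2 sets of arrays by follicular level were added after seeing the data.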

Additional observations from a re-analysis of the deposited data

Results flagged for a closer look

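In the 45 groups of 4 values examined (5 probes in 9 groups), 4 held 1 rat far from the other 3, where chance gives about 1 in 20 for separate sets; the 27 sets of the 3 *Dbp* probes are not separate. *Nfil3* had a rat at -2.63 in the 88 kBq group, below the others at -0.67 to -0.47, a rat at -0.63 in the 340 kBq group, above the others at -1.34 to -1.29, and a rat at -1.97 among the controls, above the others at -2.71 to -2.61. *Tef* had a rat at 1.60 in the 340 kBq group, above the others at 0.89 to 0.998.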

How the results depend on the processing

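The directions of the *Dbp*, *Tef* and *Nfil3* slopes with injection order held over the alternative fits, but *Tef* had -0.10 within slide 4. The *Dbp* slope of 0.43 passed only at the looser limit of 0.05. A fit with 36 arrays as units gave 0.43 with an adjusted p of 2.7e-07. The rats of a group share 1 place in the order, so that p treats them as separate positions and is too small. Over the group means the adjusted p was 0.064 after quantile normalization and 0.070 with a slide block. Of 36 fits each without 1 rat it stayed under 0.05 in 15 (slopes 0.404 to 0.450, adjusted p 0.0174 to 0.106, 21 rats of all 9 groups concerned). The cause was not tested. The *Dbp* ratio of 4700 to 9 kBq no longer passed 0.01 with a slide block (3.17) or in the arrays high (2.64) and low (4.10) in follicular markers, which hold fewer arrays, and was 2.66 to 3.26 with 1 rat left out. Array weights, whose estimation stopped before its tolerance, called *Tef* (1.19) and *Nfil3* (-1.97) among 3647 probes, 12% of all. Of 40 tests against controls, 0 passed, but 12 did after quantile normalization, 12 in the authors' matrix, 2 with normexp, 4 with the dim filter, 8 with the follicular covariate, 9 with array weights and 8 at 0.05 (over all probes, these settings before the last called, in that order, 0.00617%, 0.00617%, 0.00247%, 0.00407%, 0.00535% and 0.165% of tests, 364 of the 401 calls with array weights being at 9 kBq); leaving out 1 rat gave 0 to 4, with 4 without 1300 kBq rat 4 or 4700 kBq rat 3. *Dbp* with *Nfil3* per rat lost its call after quantile normalization (0.259), in the authors' matrix (0.258), with the follicular covariate (0.310) and in the arrays high (0.333) and low (0.460) in follicular markers, as did *Tef* with *Nfil3* in those sets (0.652 and 0.652).

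Small values changed sign. *Tef* at 1300 kBq against controls was 0.0083 with median centring, 0.039 in the low arrays and -0.364 to 0.307 with 1 rat left out. *Nfil3* was -0.14 at 9 kBq and -0.33 at 1300 kBq in the high arrays, 0.69 at 760 kBq and 1.81 at 4700 kBq in the low arrays, -0.091 at 1300 kBq with array weights, and, with 1 rat left out, -0.706 to 0.151 at 760 kBq and -0.659 to 0.593 at 4700 kBq. *Dbp* at 4700 kBq was -0.030 to 0.658 with 1 rat left out, and the *Nfil3* dose slope was 0.048 in the low arrays. Rats share only a number across groups: deviations of same-numbered rats correlated between -0.686 and 0.685, and 8 of 36 arrays were closest to their own number. With the replicate block, the *Dbp* ratio of 4700 to 9 kBq was 3.01 (adjusted p = 0.0094), and the relations per rat were 0.790, 0.446 and 0.7497; it changed no call at the study's limits, but at 0.05 the calls of the brightest *Dbp* probe at 9 and 88 kBq were lost (adjusted p = 0.0542 and 0.0552). Those 2 calls were also lost with a slide block (adjusted p = 0.118 and 0.951), a scan day block (0.0533 and 0.127) and median centring (0.0749 and 0.0741). In fits of only the 2 groups compared the adjusted p was at least 0.999. Both calls held after quantile normalization, in the authors' matrix and with normexp, the dim filter, the follicular covariate and array weights. With 1 rat left out, they held in 22 and 20 of 36 fits. All members were well above background on all arrays.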
